A study of Mus musculus with 90 samples.

Results

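The data described here are liver transcriptomes of wild-type mice on the control diet at 2 times of day, ZT8 and ZT12. ZT, Zeitgeber time, counts hours from lights-on in a cycle with 12 h of light, so ZT8 falls late in the light phase and ZT12 is the moment of lights-off. The members are the libraries whose labels give wild type, control diet and 1 of these times: 4 at ZT8 and 4 at ZT12, 8 of the 90 samples of the series, taken by their labels. The study sequenced liver RNA around the clock in mice with and without the glucocorticoid receptor (GR) in hepatocytes, on a control diet or under caloric restriction, to ask how time, food and this receptor shape liver transcripts. All mice were male, of the strain C57BL/6J, 12 weeks old at the start of an 8-week protocol, single-housed and fed chow. Wild type (WT) here means floxed GR alleles (GRfl/fl) with no Cre, and GRLKO means the same alleles with Cre driven by the albumin promoter, which deletes GR in hepatocytes and leaves it in other liver cells. The control diet was food at will, given in the final week only from ZT12 to ZT0, so the ZT8 mice had been without food access for 8 h and the ZT12 mice for 12 h. Caloric restriction (CR) was a ration 40% smaller, given at ZT12. Each library came from 1 mouse, and time and hours without food cannot be told apart in this design.

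The values are estimated counts per gene. They summed to 12301800 to 14981008 per library at ZT8 and 11408194 to 14544579 at ZT12. Levels below are CPM, the counts of a gene relative to the total of its library after TMM scaling, always listed in the order of replicates 1 to 4 (n = 4 mice at each time), and a fold change is the log2 of ZT12 over ZT8 with its standard error. The first principal component held 31.8% of the variance and set the times apart, with ZT8 mice from -32.5 to -24 and ZT12 mice from 19.7 to 35.1. On the second component, with 14.4%, ZT12 replicate 1 lay at -33.6 and ZT12 replicate 4 at 37.3, while the other 6 livers lay from -6.21 to 14.

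The liver clock is a loop in which the activators Arntl (BMAL1), Clock and Npas2 switch on their own repressors of the Per, Cry and Rev-erb (Nr1d1, Nr1d2) families, and these repressors peak in turn between midday and the night. In nocturnal mice, corticosterone rises toward the dark phase and acts through GR, a ligand-activated transcription factor whose liver targets include clock genes, enzymes of glucose production and amino acid breakdown, and its own co-chaperones. Food deprivation moves the liver toward glucose output and fat use, and the sterol-sensing factor SREBP-2 sets the level of the enzymes that make cholesterol.

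The libraries carried the marks of liver. Albumin (Alb) stood at 67000, 68300, 67100 and 71700 CPM at ZT8 and 56300, 69800, 53500 and 63600 CPM at ZT12, and the 7 hepatocyte markers summed to 97200, 99200, 97700 and 102000 CPM at ZT8 and 87500, 102000, 85300 and 95100 CPM at ZT12. Of these 7 markers, 0 passed the edgeR test between the times, against 1 higher and 1 lower at an unadjusted p under 0.05 and 0 with DESeq2. In single fits, 1 was lower without ZT12 replicate 2 and 1 higher without ZT12 replicate 4. Nr3c1, the gene of GR, read 86.3, 97, 93.5 and 91.9 CPM at ZT8 and 80.6, 85.9, 73.9 and 86.3 CPM at ZT12, a log2 change of -0.17 ± 0.07 (SE, adjusted p = 0.105). The groups overlapped, and the change did not pass the test. On a common scale with the 8 GRLKO livers, Nr3c1 stood at 88.2, 98.8, 94.8 and 93.7 CPM in WT at ZT8 and 83.2, 88, 75.7 and 88.9 CPM in WT at ZT12. In GRLKO it was 21.4, 25.6, 19.3 and 23.4 CPM at ZT8 and 18.6, 20.8, 20.2 and 25 CPM at ZT12, below every WT liver, so the labelled deletion was visible in the RNA.

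Between ZT8 and ZT12, 1780 of 11466 genes tested (15.5%) differed at an adjusted p under 0.05. Of the genes tested, 814 (7.10%) were higher at ZT12 and 966 (8.42%) were lower. The 4 ZT12 mice did not overlap the 4 ZT8 mice in 2604 genes (22.7%), 1692 of them past the test. Protein-coding genes made up 1750 of those called. The median absolute log2 change of the called genes was 0.533, and 142 rose and 163 fell by more than 1 log2 unit. The median log2 change over all genes tested was 0.00232. Fewer genes were called in each fit that left out 1 library and so had 1 mouse fewer, at most 1708. The number of calls was 952 without ZT8 replicate 3, 1033 without ZT8 replicate 4, 1095 without ZT8 replicate 2 and 1137 without ZT12 replicate 3. The higher genes numbered 413 without ZT8 replicate 3, 449 without ZT8 replicate 4 and 479 without ZT8 replicate 2, and the lower genes 539 without ZT8 replicate 3, 584 without ZT8 replicate 4, 593 without ZT12 replicate 3 and 616 without ZT8 replicate 2. The genes past the threshold in every fit that left out 1 library numbered 797, and those given below with their own fold change belong to them unless said otherwise.

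Of 18 core clock genes tested, 5 were higher at ZT12 and 3 lower, beside 7.10% and 8.42% of all genes tested. Their median log2 change was -0.0332. Per1, a repressor that also answers to glucocorticoids, read 21.2, 43.9, 34.2 and 28.8 CPM at ZT8 and 68.5, 62.1, 56.7 and 90 CPM at ZT12. Each ZT12 liver lay above each ZT8 liver, a log2 change of 1.11 ± 0.22 (SE, adjusted p = 0.0115). Per2, its partner in the repressor complex, read 24.8, 34, 23.4 and 26.1 CPM at ZT8 and 60, 74.9, 61.1 and 63.7 CPM at ZT12. These values did not overlap either, and ZT12 replicate 2 was the highest, with a log2 change of 1.26 ± 0.13 (SE, adjusted p = 0.000684). Cry1, the cryptochrome that joins Per proteins late in the cycle, read 5.23, 4.31, 4.04 and 6.13 CPM at ZT8 and 14.8, 16, 9.85 and 11.8 CPM at ZT12. It was low in all 4 ZT8 livers and rose by 1.41 ± 0.19 (SE, adjusted p = 0.00248). Ciart, a repressor of Clock and BMAL1, read 12.9, 17.1, 9.91 and 11.5 CPM at ZT8 and 39.4, 29.4, 37.1 and 40.9 CPM at ZT12, a log2 change of 1.51 ± 0.17 (SE, adjusted p = 0.00113). Per3 and Cry2 overlapped between the times, with log2 changes of 0.25 ± 0.09 (adjusted p = 0.0862) and 0.1 ± 0.07 (adjusted p = 0.354).

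The Rev-erb repressors and Dec2 went the other way. Nr1d1, the gene of Rev-erb alpha, read 166, 146, 177 and 146 CPM at ZT8 and 42.6, 21.7, 31 and 29.8 CPM at ZT12. Every ZT12 value was below every ZT8 value, and the log2 change was -2.35 ± 0.18 (SE, adjusted p = 0.000261). Nr1d1 overlaps Thra on the opposite strand, and whether the counts keep the strands apart was not tested, so some of its reads may belong to Thra. Nr1d2, the gene of Rev-erb beta, read 119, 137, 144 and 135 CPM at ZT8 and 88.1, 103, 101 and 116 CPM at ZT12. It fell by 0.39 on the log2 scale (adjusted p = 0.0219), a call not held without ZT8 replicate 2 (adjusted p = 0.056), ZT8 replicate 3 (adjusted p = 0.0662), ZT8 replicate 4 (adjusted p = 0.0551) or ZT12 replicate 3 (adjusted p = 0.0583). Bhlhe41 (Dec2), a repressor that competes for the same promoter element as Clock and BMAL1, read 13.5, 16.1, 16.5 and 15.2 CPM at ZT8 and 3.73, 1.91, 4.81 and 5.27 CPM at ZT12. The highest ZT12 liver stood well under the lowest ZT8 liver, with a log2 change of -1.96 ± 0.25 (SE, adjusted p = 0.00202). Its relative Bhlhe40 (Dec1) overlapped between the times, at 128, 138, 102 and 133 CPM at ZT8 and 109.5, 64, 73.5 and 111 CPM at ZT12 (adjusted p = 0.102). Of the activators, Arntl was near its daily trough, at 0.204, 0.903, 0 and 1.35 CPM at ZT8 and 0, 0.367, 1.32 and 0.93 CPM at ZT12, and Clock at 5.02, 8.62, 2.77 and 0 CPM at ZT8 and 0, 2.86, 0 and 0 CPM at ZT12. Neither passed (adjusted p = 0.968 and adjusted p = 0.258), and Npas2 was too low to be tested. Rora read 60.8, 71.3, 82.8 and 85.2 CPM at ZT8 and 66.6, 80.5, 58.1 and 57.4 CPM at ZT12 (adjusted p = 0.363). The kinase genes Csnk1d and Csnk1e, whose products set the life span of Per proteins, and Fbxl21, a ubiquitin ligase gene of the list, had log2 changes of -0.02 ± 0.06, -0.04 ± 0.14 and -0.18 ± 0.29, and none of these passed the edgeR test. With all 22 control-diet WT libraries in the fit, and with all 42 control-diet libraries, Nr1d2 was not past the threshold (adjusted p = 0.104 and adjusted p = 0.18), and in the fit of 42 Bhlhe40 was (adjusted p = 0.0428).

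**Figure D1:**
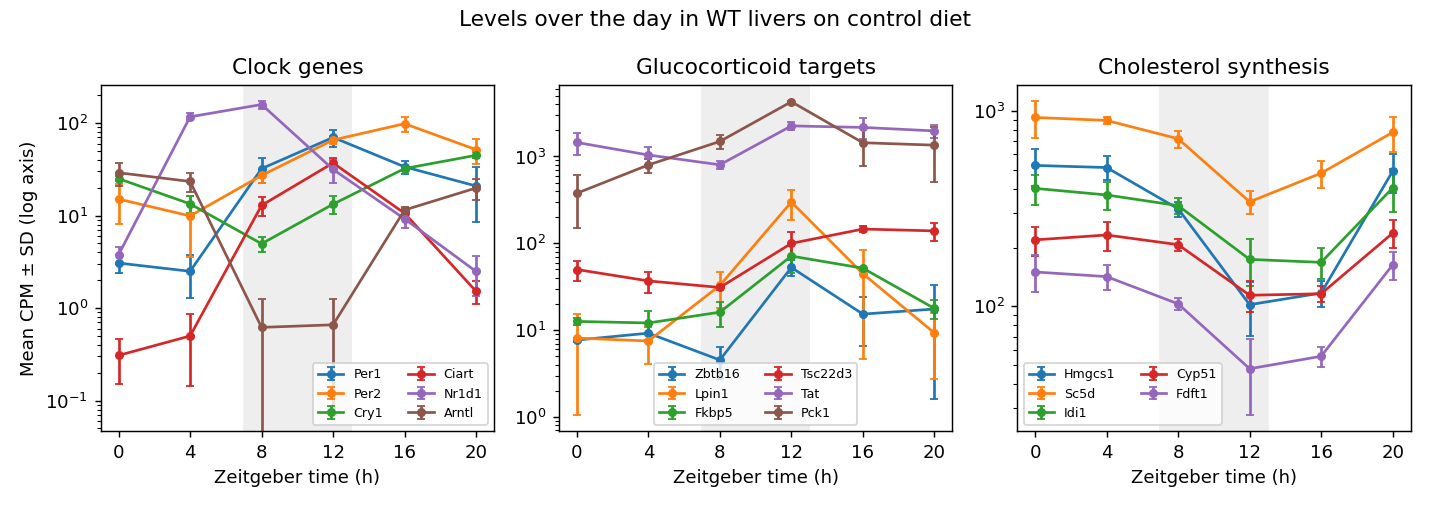
Mean CPM with SD (vertical, log scale) of clock genes, glucocorticoid targets and cholesterol genes at the 6 times sampled in WT livers on the control diet (horizontal, ZT in h; n = 3 at ZT0 and ZT4, 4 at the other times; ZT8 to ZT12 shaded). Per2 had a mean of 27.2 at ZT8 and 65.7 at ZT12, while Nr1d1 went from 159 to 31.6.

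The daily course placed these steps. With all 22 control-diet WT livers on a common scale, Arntl had means of 29.1 CPM at ZT0, 23.4 at ZT4, 0.619 at ZT8, 0.66 at ZT12, 11.5 at ZT16 and 19.9 at ZT20. ZT8 and ZT12 were thus its lowest times. Per2 averaged 15.1, 9.92, 27.2, 65.7, 98.6 and 51.7 CPM over the same 6 times, so its climb was under way between ZT8 and ZT12. Nr1d1 averaged 3.78, 117, 159, 31.6, 9.22 and 2.49 CPM, and the step to ZT12 was the fall from its daily high.

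Of 12 clock output genes, 6 were higher and 0 lower, beside 7.10% and 8.42% of all genes tested. Their median log2 change was 0.599. At an unadjusted p under 0.05 the lower genes numbered 0, and with DESeq2 0. Usp2, a ubiquitin protease gene under clock control, read 34.8, 39.3, 38.3 and 34.9 CPM at ZT8 and 88, 79.5, 88.1 and 100.3 CPM at ZT12. The times were far apart beside the spread among mice, with a log2 change of 1.27 ± 0.08 (SE, adjusted p = 8.79e-05). Nampt, the enzyme that limits the salvage of NAD, read 53.4, 68.2, 53.5 and 46.8 CPM at ZT8 and 117, 176, 132 and 199.8 CPM at ZT12. All ZT12 livers were high, replicate 4 most of all, and the log2 change was 1.49 ± 0.18 (SE, adjusted p = 0.00156). Noct, nocturnin, a rhythmic phosphatase of NADP, read 152, 166, 164 and 158 CPM at ZT8 and 290.5, 311, 269.6 and 339 CPM at ZT12, a log2 change of 0.92 ± 0.07 (SE, adjusted p = 0.000329). Por, the reductase that feeds electrons to microsomal P450 enzymes, read 365, 309.8, 377 and 287 CPM at ZT8 and 668, 590.2, 498 and 753 CPM at ZT12, and rose by 0.91 ± 0.14 (SE, adjusted p = 0.00365). Tspan4, a membrane protein gene, rose by 0.7 ± 0.1 (SE, adjusted p = 0.0035). Wee1, a kinase gene that holds back mitosis, was also called (adjusted p = 0.03), but this call held in 1 of the 8 fits that left out a library. It was not held without ZT8 replicate 1 (adjusted p = 0.0689), ZT8 replicate 2 (adjusted p = 0.0745), ZT8 replicate 3 (adjusted p = 0.0573), ZT8 replicate 4 (adjusted p = 0.0722), ZT12 replicate 1 (adjusted p = 0.0509), ZT12 replicate 2 (adjusted p = 0.0579) or ZT12 replicate 3 (adjusted p = 0.0527). The PAR bZIP factors, which carry clock timing to metabolic genes, did not pass: Dbp read 56.9, 82.2, 78.9 and 95.9 CPM at ZT8 and 50.8, 47.6, 80.3 and 62.5 CPM at ZT12 (adjusted p = 0.208), Tef had a log2 change of 0.14 ± 0.06 and Hlf of -0.01 ± 0.09.

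Among 7 genes of GR itself and of its ligand's metabolism, 1 was higher and 2 were lower. The shares of all genes tested were 7.10% and 8.42%. Nr3c2, the mineralocorticoid receptor that also binds corticosterone, read 23.7, 31.2, 22 and 22.3 CPM at ZT8 and 14, 12.2, 12.8 and 13.2 CPM at ZT12. All 4 ZT12 livers were low, and the log2 change was -0.93 ± 0.12 (SE, adjusted p = 0.0021). H6pd, which supplies NADPH to the enzyme that regenerates corticosterone, read 478, 469, 565 and 457 CPM at ZT8 and 391, 381, 417 and 364 CPM at ZT12, a log2 change of -0.34 ± 0.08 (SE, adjusted p = 0.0205). Srd5a1, a reductase that inactivates corticosterone, read 90.8, 88.1, 109 and 106 CPM at ZT8 and 128, 143, 123 and 120 CPM at ZT12 and rose by 0.38 ± 0.09 (SE, adjusted p = 0.0219). The Srd5a1 call was not held without ZT8 replicate 1 (adjusted p = 0.0586) or ZT8 replicate 2 (adjusted p = 0.057), so the higher count was 0 in those fits. Hsd11b1, the regenerating enzyme itself, Akr1d1, a reductase of steroid hormones and bile acid precursors, and Serpina6, the plasma carrier of corticosterone, had log2 changes of 0.02 ± 0.07, -0.08 ± 0.15 and 0.09 ± 0.08, with adjusted p of 0.894, 0.752 and 0.47.

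Of 26 known glucocorticoid targets tested, 15 were higher and 0 lower, with a median log2 change of 1.15, beside 7.10% higher and a median of 0.00232 over all genes tested. The lower targets numbered 2 at an unadjusted p under 0.05 and 0 with DESeq2. Of the 15 calls, 13 held in all 8 fits that left out a library. Zbtb16 (PLZF), a transcription factor gene long used as a GR target, read 6.92, 2.78, 3.88 and 4.39 CPM at ZT8 and 39.4, 54, 65.1 and 49.9 CPM at ZT12. It was almost silent at ZT8 and clearly present in each ZT12 liver, with a log2 change of 3.53 ± 0.26 (SE, adjusted p = 0.000231). Lpin1, a phosphatidate phosphatase and coactivator, read 18.5, 52.1, 24.6 and 35 CPM at ZT8 and 166, 260.5, 315 and 441 CPM at ZT12. The ZT12 livers varied from 166 to 441 CPM but all lay above ZT8, a log2 change of 3.18 ± 0.38 (SE, adjusted p = 0.00139). Dusp1, a phosphatase that switches off MAP kinases, read 3.19, 2.36, 5.39 and 8.84 CPM at ZT8 and 44.1, 28.9, 35.9 and 37.3 CPM at ZT12, and rose by 2.88 ± 0.34 (SE, adjusted p = 0.00142).

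Among the other targets, Fkbp5 and Tsc22d3 were singled out after their values were seen. Fkbp5, a co-chaperone that lowers GR's affinity for its ligand, read 19.9, 9.45, 20.4 and 14.3 CPM at ZT8 and 61.3, 63.3, 50.1 and 108 CPM at ZT12. Replicate 4 was the highest at ZT12, and the log2 change was 2.14 ± 0.29 (SE, adjusted p = 0.00268). Tsc22d3 (GILZ), an anti-inflammatory leucine zipper gene, read 27.9, 31.8, 30.3 and 33.4 CPM at ZT8 and 144, 104, 72.8 and 73.3 CPM at ZT12, a log2 change of 1.67 ± 0.21 (SE, adjusted p = 0.0019). Its highest value was that of ZT12 replicate 1. The factors Cebpd and Cebpb, which act downstream of GR in the liver, read 1.29, 2.02, 1.27 and 1.81 CPM at ZT8 and 5.82, 3.67, 5.35 and 6.9 CPM at ZT12 and 21.6, 23.4, 23.4 and 32.8 CPM at ZT8 and 69.4, 44, 50.9 and 77.1 CPM at ZT12. Neither overlapped between the times, with log2 changes of 1.76 ± 0.25 (SE, adjusted p = 0.00307) and 1.25 ± 0.2 (SE, adjusted p = 0.00456). Ddit4, an inhibitor of mTORC1, was 4.41, 3.34, 2.93 and 3.61 CPM at ZT8 and 20.7, 8.81, 5.04 and 9.22 CPM at ZT12. This gene rose by 1.6 ± 0.39 (SE, adjusted p = 0.0259), a call not held without ZT8 replicate 2 (adjusted p = 0.0653), ZT8 replicate 3 (adjusted p = 0.076) or ZT8 replicate 4 (adjusted p = 0.0651). Angptl4, a secreted inhibitor of lipoprotein lipase, was also higher, at 48.7, 49.5, 54.7 and 44.4 CPM at ZT8 and 114, 63.4, 59.1 and 90.7 CPM at ZT12 (adjusted p = 0.0364), and was not past the threshold without ZT8 replicate 1 (adjusted p = 0.0806), ZT8 replicate 2 (adjusted p = 0.0785), ZT8 replicate 3 (adjusted p = 0.0714), ZT8 replicate 4 (adjusted p = 0.0926) or ZT12 replicate 4 (adjusted p = 0.0731), nor in larger fits (adjusted p = 0.167 with 22 libraries in the fit and adjusted p = 0.193 with 42).

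**Figure D2:**
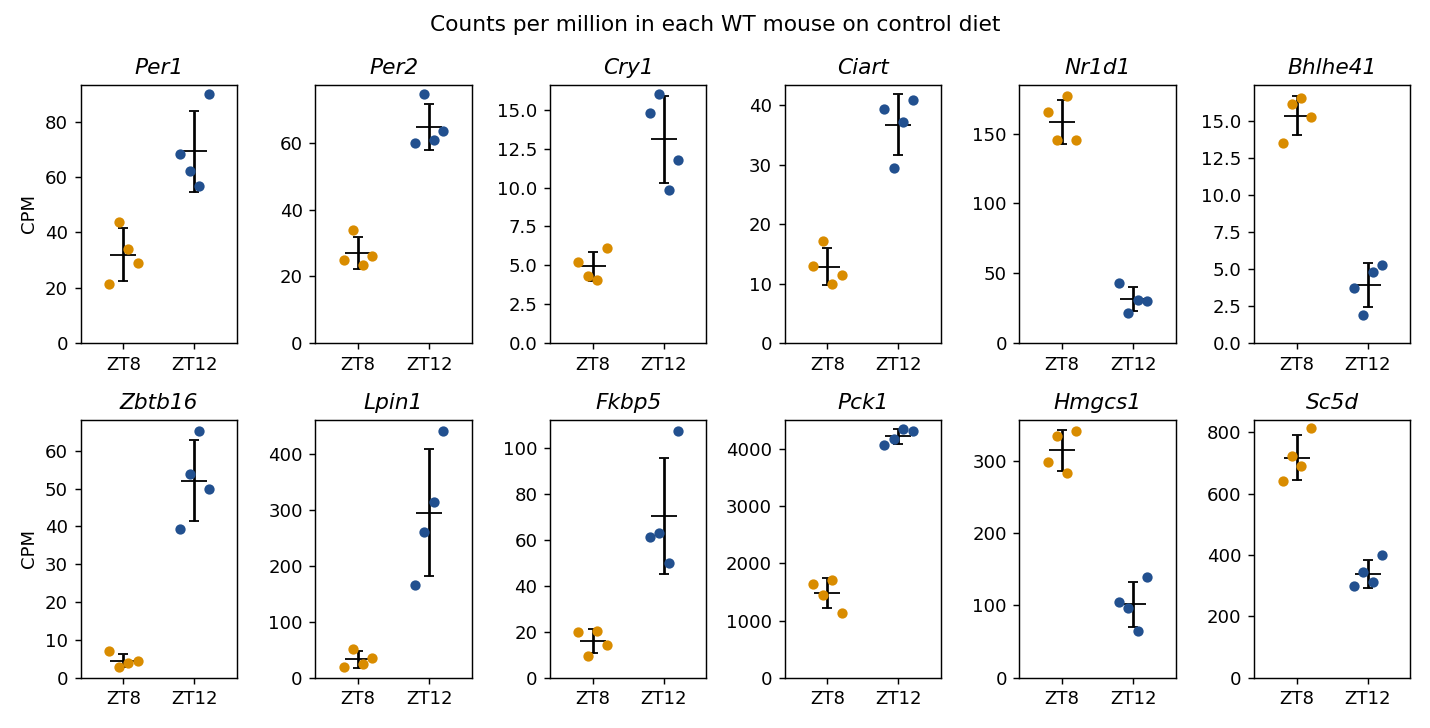
CPM in each mouse (points; vertical axis linear from 0) with mean and SD at ZT8 and ZT12 (n = 4 each) for 12 genes of the clock, of glucocorticoid response and of cholesterol synthesis. Nr1d1 stood at 146 to 177 CPM at ZT8 and 21.7 to 42.6 CPM at ZT12, while Zbtb16 stood at 2.78 to 6.92 and 39.4 to 65.1 CPM.

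The steepest rises, among genes with no overlap between the times and a call in every fit that left out a library, included Gadd45g and several that belong to no list. Gadd45g, a growth-arrest gene, read 1.15, 5.84, 1.35 and 4 CPM at ZT8 and 6.45, 103, 83.9 and 80.2 CPM at ZT12. ZT12 replicate 1 was far below the other ZT12 livers and little above the highest ZT8 liver, and the log2 change was 4.45 ± 0.81 (SE, adjusted p = 0.00874). Mfsd2a, a carrier of lysophosphatidylcholine that is known to rise in fasted liver, read 9.77, 16.2, 2.62 and 5.36 CPM at ZT8 and 113, 103, 97.9 and 142 CPM at ZT12. The log2 change was 3.74 ± 0.43 (SE, adjusted p = 0.0012). Mthfd1l, a mitochondrial enzyme of folate metabolism, read 0.475, 1.25, 0.713 and 0.71 CPM at ZT8 and 6.36, 11.6, 11.9 and 8.06 CPM at ZT12, a log2 change of 3.58 ± 0.32 (SE, adjusted p = 0.00047). Scara5, a receptor for ferritin, read 3.53, 2.08, 3.33 and 1.61 CPM at ZT8 and 17.9, 17.6, 18.7 and 42.7 CPM at ZT12. ZT12 replicate 4 stood above the others, and the log2 change was 3.2 ± 0.38 (SE, adjusted p = 0.00136). Eif4ebp3, a brake on cap-dependent translation, read 13.1, 12.2, 7.29 and 7.36 CPM at ZT8 and 48.1, 45.4, 47.1 and 129.9 CPM at ZT12, again with replicate 4 the highest at ZT12 and a log2 change of 2.75 ± 0.4 (SE, adjusted p = 0.00332). The pseudogene Gtpbp4-ps1 rose by 2.85 ± 0.56 (SE, adjusted p = 0.0119), and its reads may be shared with its parent gene.

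The steepest falls began with Ppp1r9a, which encodes neurabin, a scaffold for protein phosphatase 1. It read 20.3, 22.6, 20.9 and 24.2 CPM at ZT8 and 2.45, 2.94, 2.33 and 2.25 CPM at ZT12. The mice of each time lay close together, and the log2 change was -3.14 ± 0.11 (SE, adjusted p = 4.83e-06). Arrdc3, an arrestin-domain adaptor for membrane proteins, read 297, 172, 407 and 211 CPM at ZT8 and 78, 20.2, 44.4 and 20.7 CPM at ZT12. Its spread was wide at both times, yet the groups did not overlap, with a log2 change of -2.74 ± 0.47 (SE, adjusted p = 0.00626). Camk1d, a calcium-dependent kinase, read 108, 129.6, 131 and 139 CPM at ZT8 and 11.1, 20.8, 17.8 and 31.7 CPM at ZT12, a log2 change of -2.63 ± 0.26 (SE, adjusted p = 0.000673). Abcd2, a peroxisomal carrier of very-long-chain acyl-CoA, read 28.2, 28.9, 37.6 and 34.3 CPM at ZT8 and 4.18, 5.14, 3.8 and 13.1 CPM at ZT12, a log2 change of -2.29 ± 0.35 (SE, adjusted p = 0.00407). Elovl3, a rhythmic fatty acid elongase, read 42.3, 38.4, 41.2 and 41.4 CPM at ZT8 and 14.8, 8.59, 3.33 and 10.2 CPM at ZT12, a log2 change of -2.16 ± 0.32 (SE, adjusted p = 0.0038). All 4 ZT12 livers were low. Fzd6, a Wnt receptor, fell by 2.14 on the log2 scale (adjusted p = 0.00527), and Sgce, epsilon-sarcoglycan, by 2.02 (adjusted p = 0.00462). Aqp8, a water channel of the bile canaliculus, read 86.4, 88.1, 85.5 and 173 CPM at ZT8 and 35.8, 24.4, 17.1 and 24 CPM at ZT12. ZT8 replicate 4 was far above the other ZT8 livers, and the log2 change was -2.1 ± 0.29 (SE, adjusted p = 0.0027).

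Of 26 cholesterol genes tested, 17 were lower and 0 higher, with a median log2 change of -0.57, beside 8.42% lower over all genes tested. The higher genes numbered 0 at an unadjusted p under 0.05 and 0 with DESeq2. Of the 20 synthesis enzymes, 14 were lower, and 13 of the 17 calls held in all 8 fits that left out a library. Besides Srebf2, the calls lost were Acat2 without ZT8 replicates 2, 3 or 4 or ZT12 replicates 2, 3 or 4 (highest adjusted p = 0.129), Tm7sf2 without ZT8 replicates 1, 2, 3 or 4 or ZT12 replicates 2 or 3 (highest adjusted p = 0.0901) and Dhcr7 without ZT8 replicates 1, 2 or 4 or ZT12 replicates 1, 2 or 3 (highest adjusted p = 0.095). Hmgcs1, a synthase of the early path, read 299, 335, 282 and 342 CPM at ZT8 and 105, 95.8, 64.5 and 139.7 CPM at ZT12. Its ZT12 livers were all low, replicate 3 most of all, with a log2 change of -1.63 ± 0.2 (SE, adjusted p = 0.00157). Fdft1 (squalene synthase), the branch point to sterols, read 103, 111, 93.7 and 101 CPM at ZT8 and 45.5, 33.5, 34 and 76.6 CPM at ZT12, a log2 change of -1.11 ± 0.24 (SE, adjusted p = 0.0175). Sc5d, a desaturase near the end of the path, read 642, 724, 689 and 815 CPM at ZT8 and 299, 343, 312 and 401 CPM at ZT12, a log2 change of -1.08 ± 0.11 (SE, adjusted p = 0.000668). Neither gene overlapped between the times. Idi1, Cyp51 and Scap were singled out after their values were seen. Idi1, an isomerase of the early path, read 318, 363, 334 and 289 CPM at ZT8 and 158, 152, 136 and 241 CPM at ZT12, and Cyp51, the first demethylase after lanosterol, read 214, 217, 205 and 186 CPM at ZT8 and 104, 97.8, 105 and 144 CPM at ZT12. Their log2 changes were -0.92 ± 0.17 (SE, adjusted p = 0.00837) and -0.87 ± 0.12 (SE, adjusted p = 0.00268). Scap, the escort that brings SREBP to the Golgi, read 168, 160.4, 176 and 187 CPM at ZT8 and 108, 108, 99.9 and 116 CPM at ZT12, a log2 change of -0.68 ± 0.07 (SE, adjusted p = 0.000642). Srebf2, the gene of SREBP-2, had a log2 change of -0.32 ± 0.07 (adjusted p = 0.0192) and was not past the threshold without ZT8 replicate 1 (adjusted p = 0.0503), ZT8 replicate 2 (adjusted p = 0.0538), ZT12 replicate 2 (adjusted p = 0.0528) or ZT12 replicate 3 (adjusted p = 0.0589).

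Fatty acid and triglyceride synthesis was mixed, with 5 of 21 tested higher and 4 lower, beside 7.10% and 8.42% of all genes tested. The list had a median of 0.065. The higher count was 3 without ZT8 replicates 2 or 4 or ZT12 replicate 3. Thrsp (Spot 14), a promoter of lipogenesis, read 173, 338, 190.1 and 407 CPM at ZT8 and 1297, 1078, 699 and 1049 CPM at ZT12, a log2 change of 1.9 ± 0.3 (SE, adjusted p = 0.00445). Dgat2, the last enzyme of triglyceride synthesis, read 445, 411, 432 and 447 CPM at ZT8 and 608, 581, 526 and 566 CPM at ZT12, a log2 change of 0.39 ± 0.06 (SE, adjusted p = 0.00365). Both were higher in every ZT12 liver. Elovl5, an elongase of polyunsaturated fatty acids, read 322, 327, 359 and 444 CPM at ZT8 and 205, 153, 118 and 148 CPM at ZT12, a log2 change of -1.22 ± 0.17 (SE, adjusted p = 0.00257). Acss2, which makes acetyl-CoA from acetate, read 323, 275, 386 and 430 CPM at ZT8 and 194, 145, 120.1 and 184 CPM at ZT12, a log2 change of -1.14 ± 0.18 (SE, adjusted p = 0.00441). Insig2, which holds SREBP in the endoplasmic reticulum, read 94.3, 93.1, 96.4 and 102 CPM at ZT8 and 54.2, 62.7, 45.5 and 34.5 CPM at ZT12, a log2 change of -0.97 ± 0.16 (SE, adjusted p = 0.00477). These 3 were lower in every ZT12 liver. The remaining calls were Lpin1, Dgat1 and Mlxipl, higher, and Fads2, lower. The test no longer called Dgat1 without ZT8 replicates 1, 2 or 4 or ZT12 replicate 3 (highest adjusted p = 0.0667), Mlxipl without ZT8 replicates 1, 3 or 4 or ZT12 replicate 3 (highest adjusted p = 0.0761) and Fads2 without ZT8 replicates 2, 3 or 4 or ZT12 replicates 3 or 4 (highest adjusted p = 0.0758).

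Of 42 fat oxidation and ketogenesis genes tested, 5 were higher and 1 lower, with a median of 0.104. Over all genes tested, 7.10% were higher and 8.42% lower. DESeq2 gave 9 higher and 2 lower in the list, beside 1072 and 1115 of all 11466 genes. With edgeR, the higher count was 3 without ZT8 replicates 2, 3 or 4. The lower count was 0 without ZT8 replicates 1, 2 or 4 or ZT12 replicate 2 and 8 without ZT12 replicate 1. Plin5, a coat protein that ties lipid droplets to mitochondria, read 20.7, 22.5, 17.4 and 15.5 CPM at ZT8 and 43.6, 59, 54.6 and 40.5 CPM at ZT12, and rose in each ZT12 liver by 1.38 ± 0.16 (SE, adjusted p = 0.00113). Slc25a20, the carrier of acylcarnitines into mitochondria, read 87.5, 79.9, 87 and 78.2 CPM at ZT8 and 108, 102, 112 and 94.2 CPM at ZT12, a log2 change of 0.32 ± 0.07 (SE, adjusted p = 0.0167), and was not past the threshold in the fit of 42 libraries (adjusted p = 0.0531). The other higher genes were Acaa2, Angptl4 and Creb3l3, of which 2 lost their call: Angptl4 without ZT8 replicates 1, 2, 3 or 4 or ZT12 replicate 4 (highest adjusted p = 0.0926) and Creb3l3 without ZT8 replicates 2, 3 or 4 or ZT12 replicate 3 (highest adjusted p = 0.077). Plin2, the common coat of lipid droplets, was the lower gene, at 305, 281, 243 and 290.4 CPM at ZT8 and 223, 162, 218 and 145 CPM at ZT12 (adjusted p = 0.0275). It was not past the threshold without ZT8 replicate 1 (adjusted p = 0.0676), ZT8 replicate 2 (adjusted p = 0.0621), ZT8 replicate 4 (adjusted p = 0.0672) or ZT12 replicate 2 (adjusted p = 0.0684).

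Of 30 genes of glucose and glycogen metabolism tested, 11 were higher and 1 lower, with a median of 0.45. Over all genes tested, 7.10% were higher and 8.42% lower. Of the higher genes, 8 held in every fit that left out a library. Pck1, the enzyme that commits carbon to glucose, read 1640, 1445, 1709 and 1134 CPM at ZT8 and 4069, 4168, 4349 and 4310 CPM at ZT12. Its ZT12 livers were nearly equal, and the log2 change was 1.51 ± 0.12 (SE, adjusted p = 0.000287). Sds, which turns serine into pyruvate, read 130.4, 214, 143 and 149 CPM at ZT8 and 448, 409.9, 388 and 495 CPM at ZT12, a log2 change of 1.45 ± 0.15 (SE, adjusted p = 0.000932). Foxo1, a fasting-activated factor at gluconeogenic genes, read 30.7, 29.1, 35 and 35.3 CPM at ZT8 and 54, 50.2, 48.8 and 49.4 CPM at ZT12, a log2 change of 0.64 ± 0.08 (SE, adjusted p = 0.00176). G6pc, the last step of glucose output, overlapped between the times, at 162, 192, 93.6 and 192 CPM at ZT8 and 345, 228, 167 and 303 CPM at ZT12 (adjusted p = 0.105). Of the glycogen-targeting subunits of protein phosphatase 1, Ppp1r3c read 70.2, 38.2, 80.2 and 83.2 CPM at ZT8 and 31.4, 29.2, 21.6 and 27.6 CPM at ZT12 and fell, with a log2 change of -1.31 ± 0.23 (SE, adjusted p = 0.00749). Ppp1r3b read 32, 23.8, 20.9 and 32.8 CPM at ZT8 and 181, 117, 37 and 37 CPM at ZT12. ZT12 replicates 1 and 2 were far above replicates 3 and 4, and its call (adjusted p = 0.0451) was not held without ZT8 replicate 1 (adjusted p = 0.0842), ZT8 replicate 2 (adjusted p = 0.104), ZT8 replicate 3 (adjusted p = 0.118), ZT8 replicate 4 (adjusted p = 0.086), ZT12 replicate 1 (adjusted p = 0.0821) or ZT12 replicate 2 (adjusted p = 0.0889).

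Amino acid and urea genes gave 13 of 41 tested higher and 2 lower, beside 7.10% and 8.42% of all genes tested. The median was 0.117. Every fit that left out a library kept 9 of the higher genes, and the lower count was 4 without ZT12 replicate 1. Tat, which opens tyrosine breakdown and is a classic glucocorticoid target, read 803, 706, 786 and 894 CPM at ZT8 and 2508, 2277, 2002 and 2103 CPM at ZT12. The lowest ZT12 liver was above the highest ZT8 liver by a wide margin, with a log2 change of 1.48 ± 0.09 (SE, adjusted p = 8.79e-05). Asns, which makes asparagine and marks amino acid stress, read 4.41, 3.75, 16.5 and 6.19 CPM at ZT8 and 71.2, 38.8, 45.9 and 22.1 CPM at ZT12. It was variable at ZT12 and still above ZT8 in all 4 livers, a log2 change of 2.54 ± 0.5 (SE, adjusted p = 0.0117). Trib3, a pseudokinase of the same stress response, went down, at 15.7, 14.4, 25.1 and 18 CPM at ZT8 and 7.72, 4.7, 4.57 and 3.95 CPM at ZT12, a log2 change of -1.81 ± 0.24 (SE, adjusted p = 0.00228). Kynu, a hydrolase of tryptophan breakdown, read 158, 159.5, 159 and 159 CPM at ZT8 and 125, 101, 110.5 and 112 CPM at ZT12, a log2 change of -0.51 ± 0.07 (SE, adjusted p = 0.00208). The ZT8 livers were nearly equal. Chac1, a glutathione-degrading enzyme of the same response, was called (adjusted p = 0.0371) although its values overlapped, at 1.22, 3.68, 1.11 and 1.29 CPM at ZT8 and 3.09, 5.14, 6.51 and 7.05 CPM at ZT12. That call was not held without ZT8 replicate 1 (adjusted p = 0.0901), ZT8 replicate 3 (adjusted p = 0.0954), ZT8 replicate 4 (adjusted p = 0.094), ZT12 replicate 2 (adjusted p = 0.0632), ZT12 replicate 3 (adjusted p = 0.0859) or ZT12 replicate 4 (adjusted p = 0.0763).

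Of 26 bile acid genes, 1 was higher and 4 were lower, beside 7.10% and 8.42% of all genes tested. The list had a median of -0.0934. Cyp7b1, a hydroxylase of the alternative synthesis path, read 286, 235, 254 and 257 CPM at ZT8 and 305, 373, 466 and 418 CPM at ZT12, a log2 change of 0.6 ± 0.12 (SE, adjusted p = 0.0136). It was not past the threshold in larger fits (adjusted p = 0.0695 with 22 libraries in the fit and adjusted p = 0.0946 with 42). Hsd3b7, an early enzyme shared by both paths, read 523, 469, 472 and 503 CPM at ZT8 and 303, 244, 304 and 223 CPM at ZT12, a log2 change of -0.87 ± 0.11 (SE, adjusted p = 0.00149). Abcb11, the bile salt export pump, read 668, 606, 709.8 and 642 CPM at ZT8 and 385, 403, 390.3 and 317 CPM at ZT12, a log2 change of -0.81 ± 0.08 (SE, adjusted p = 0.000884). Both were lower in every ZT12 liver. Klb, the co-receptor for the intestinal hormone that restrains bile acid synthesis, read 37.7, 38.7, 49.9 and 41.8 CPM at ZT8 and 21.9, 22.3, 17.1 and 19.8 CPM at ZT12, a log2 change of -1.05 ± 0.12 (SE, adjusted p = 0.00108). Nr5a2, a receptor that drives synthesis genes, was the other lower gene (adjusted p = 0.0414), and was not past the threshold without ZT8 replicate 1 (adjusted p = 0.0725), ZT8 replicate 2 (adjusted p = 0.0773), ZT8 replicate 3 (adjusted p = 0.0941), ZT8 replicate 4 (adjusted p = 0.101), ZT12 replicate 1 (adjusted p = 0.0591) or ZT12 replicate 3 (adjusted p = 0.0899). Cyp7a1, the rate-limiting enzyme, read 212, 132, 160 and 149.6 CPM at ZT8 and 218, 76.6, 71.3 and 291 CPM at ZT12 (adjusted p = 0.992).

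Drug metabolism genes gave 8 of 33 tested higher and 2 lower, beside 7.10% and 8.42% of all genes tested. Their median was 0.123, and 6 of the 8 higher genes held in all 8 fits that left out a library. The lower count was 4 without ZT12 replicate 4. Nr1i2 (PXR), a receptor that senses drugs and bile acids, read 52.4, 59.8, 54.8 and 53.6 CPM at ZT8 and 99.8, 126, 95.8 and 83.5 CPM at ZT12, and rose by 0.88 ± 0.12 (SE, adjusted p = 0.00224). Gstp1, a glutathione transferase, read 1866, 1781, 2141 and 1972 CPM at ZT8 and 2787, 3692, 4270 and 2869 CPM at ZT12, a log2 change of 0.81 ± 0.14 (SE, adjusted p = 0.00615). Gstp1 has close relatives in the genome, so its reads may be shared with them. The P450 genes Cyp2c29 and Cyp2c37 read 1150, 1016, 1204 and 1136 CPM at ZT8 and 949, 758, 628 and 716 CPM at ZT12 and 309.6, 350.4, 318 and 307 CPM at ZT8 and 264, 256, 219 and 255 CPM at ZT12. Both were lower in every ZT12 liver, with log2 changes of -0.56 ± 0.12 (SE, adjusted p = 0.0154) and -0.37 ± 0.07 (SE, adjusted p = 0.0116), and reads of these alike genes may be shared too. Neither was past the threshold in the fit of 42 libraries (adjusted p = 0.0876 and adjusted p = 0.616), nor was Cyp2c37 in that of 22 (adjusted p = 0.353).

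Of 25 heat shock genes tested, 8 were higher and 0 lower, with a median of 0.198, beside 7.10% higher over all genes tested. The lower genes numbered 1 at an unadjusted p under 0.05 and 0 with DESeq2. Of the 8 higher genes, 5 held in all 8 fits that left out a library. Besides Hsph1, Chordc1 was lost without ZT8 replicates 2, 3 or 4 or ZT12 replicates 2 or 3 (highest adjusted p = 0.0932). Dnajb1 was lost without ZT8 replicates 3 or 4 (highest adjusted p = 0.0554). Hspa8, the constitutive HSP70, read 725, 632, 573 and 647 CPM at ZT8 and 751, 1068, 1034 and 1093 CPM at ZT12. ZT12 replicate 1 was close to the highest ZT8 liver, and the log2 change was 0.61 ± 0.12 (SE, adjusted p = 0.0123). Hspa1b, the inducible HSP70, read 7.13, 5.84, 9.43 and 7.29 CPM at ZT8 and 13.3, 12.4, 18.6 and 11.9 CPM at ZT12, a log2 change of 0.92 ± 0.18 (SE, adjusted p = 0.0123), with reads that may be shared with its twin Hspa1a. Larger fits did not keep its call (adjusted p = 0.0999 with 22 libraries in the fit and adjusted p = 0.104 with 42). Hsph1, an HSP110 that recharges HSP70, read 5.02, 10.6, 6.66 and 2.32 CPM at ZT8 and 18.5, 19.8, 13.8 and 17.8 CPM at ZT12, a log2 change of 1.51 ± 0.36 (SE, adjusted p = 0.0235). That call was not held without ZT8 replicate 1 (adjusted p = 0.0622), ZT8 replicate 3 (adjusted p = 0.0611) or ZT12 replicate 2 (adjusted p = 0.051), nor in larger fits (adjusted p = 0.105 with 22 libraries in the fit and adjusted p = 0.149 with 42). Stip1, Fkbp4 and Dnaja1, co-chaperones of HSP90 and HSP70 singled out after their values were seen, rose by 0.34 ± 0.07 (SE, adjusted p = 0.011), 0.34 ± 0.06 (SE, adjusted p = 0.00975) and 0.59 ± 0.07 (SE, adjusted p = 0.00113).

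In the unfolded protein response, 2 of 31 tested were higher and 1 lower, with a median of 0.13. Both shares were under those of all genes tested, 7.10% higher and 8.42% lower. The higher count was 1 without ZT8 replicates 2, 3 or 4 or ZT12 replicates 1 or 2, 4 without ZT12 replicate 4 and 7 without ZT8 replicate 1. Herpud1, a part of the machinery that clears misfolded proteins from the endoplasmic reticulum, read 359, 280.4, 336 and 286 CPM at ZT8 and 601, 559.8, 439.5 and 408 CPM at ZT12, a log2 change of 0.67 ± 0.14 (SE, adjusted p = 0.0133). Manf, a secreted stress protein, was the other higher gene (adjusted p = 0.0425), and was not past the threshold without ZT8 replicate 2 (adjusted p = 0.0915), ZT8 replicate 3 (adjusted p = 0.0988), ZT8 replicate 4 (adjusted p = 0.0815), ZT12 replicate 1 (adjusted p = 0.0835) or ZT12 replicate 2 (adjusted p = 0.0907), nor in larger fits (adjusted p = 0.11 with 22 libraries in the fit and adjusted p = 0.222 with 42). Ern1 (IRE1 alpha), the sensor that splices Xbp1, read 109, 93.5, 96.5 and 107 CPM at ZT8 and 67.1, 71.9, 70.4 and 84.3 CPM at ZT12, and fell in each ZT12 liver, a log2 change of -0.47 ± 0.08 (SE, adjusted p = 0.0085).

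Ribosome biogenesis gave 5 of 35 tested higher and 1 lower, beside 7.10% and 8.42% of all genes tested. The list median was 0.203. The higher count was 2 without ZT8 replicate 4 and 3 without ZT8 replicates 2 or 3 or ZT12 replicate 4, and the lower count 0 without ZT8 replicates 1, 2, 3 or 4 or ZT12 replicates 1 or 2. The higher genes were Ncl, Wdr12, Nop2, Mybbp1a and Polr1a, and the lower gene was Dkc1. Calls were lost for Nop2 without ZT8 replicates 2, 3 or 4 or ZT12 replicate 4 (highest adjusted p = 0.0653), Mybbp1a without ZT8 replicates 2 or 4 (highest adjusted p = 0.0586), Polr1a without ZT8 replicates 1, 3 or 4 or ZT12 replicates 2 or 4 (highest adjusted p = 0.0898) and Dkc1 without ZT8 replicates 1, 2, 3 or 4 or ZT12 replicates 1, 2 or 4 (highest adjusted p = 0.0872). Ncl, nucleolin, read 37.8, 40.9, 40.4 and 40.9 CPM at ZT8 and 50.9, 54.9, 55.4 and 58.4 CPM at ZT12, a log2 change of 0.46 ± 0.06 (SE, adjusted p = 0.00246). Of 52 cytosolic ribosomal proteins, 2 were lower and 0 higher, with a median of 0.089. The higher count was 3 at an unadjusted p under 0.05, 0 with DESeq2, and 2 without ZT12 replicate 1 with edgeR. The lower count was 1 without ZT8 replicate 3. Rpl3 read 229, 247, 248 and 239 CPM at ZT8 and 131, 137, 124 and 157 CPM at ZT12, a log2 change of -0.81 ± 0.08 (SE, adjusted p = 0.000612), while its pseudogene Rpl3-ps1 read 0, 1.25, 0 and 0.258 CPM at ZT8 and 100.4, 106, 93.1 and 109 CPM at ZT12, a log2 change of 8.02 ± 0.48 (SE, adjusted p = 7.56e-05). Added together they gave 229, 248, 248 and 239 CPM at ZT8 and 231, 243, 217 and 266 CPM at ZT12. The sums overlapped between the times, and the reads of this pair may be divided between nearly equal sequences, so neither change can be read alone. Rpl30 read 95.9, 103, 107 and 102 CPM at ZT8 and 45.6, 75.6, 75 and 63.9 CPM at ZT12 (adjusted p = 0.018), and was not past the threshold without ZT8 replicate 3 (adjusted p = 0.0544).

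Insulin and FoxO signaling gave 3 of 26 tested higher and 5 lower, beside 7.10% and 8.42% of all genes tested. Its median was -0.0384. The higher count was 1 without ZT8 replicates 3 or 4, and the lower count 2 without ZT8 replicate 3 and 3 without ZT8 replicate 2 or ZT12 replicate 3. Besides Foxo1, the higher genes were Ddit4 and Pik3r1, and the lower genes were Insr, Tsc1, Deptor, Eif4ebp2 and Sesn1. Of these calls, some were not held: Ddit4 without ZT8 replicates 2, 3 or 4 (highest adjusted p = 0.076), Pik3r1 without ZT8 replicates 1, 3 or 4 or ZT12 replicates 2, 3 or 4 (highest adjusted p = 0.0846), Tsc1 without ZT8 replicates 2 or 3 or ZT12 replicate 3 (highest adjusted p = 0.0567) and Deptor without ZT8 replicate 3 or ZT12 replicates 1 or 3 (highest adjusted p = 0.0678). Sesn1, a stress-induced brake on mTORC1, read 14, 15.2, 16 and 14.1 CPM at ZT8 and 12.2, 10.5, 10.5 and 10.8 CPM at ZT12, a log2 change of -0.43 ± 0.09 (SE, adjusted p = 0.0127). Insr, the insulin receptor gene, read 154, 164, 166 and 178 CPM at ZT8 and 135, 140.3, 115 and 142 CPM at ZT12. It had a log2 change of -0.32 ± 0.08 (SE, adjusted p = 0.0263) and was not past the threshold without ZT8 replicate 2 (adjusted p = 0.0595), ZT8 replicate 3 (adjusted p = 0.0701) or ZT8 replicate 4 (adjusted p = 0.0703). Autophagy and lysosome genes gave 2 of 32 tested higher and 3 lower, near the 7.10% and 8.42% of all genes tested. Their median was -0.042, and the higher count was 1 without ZT8 replicates 2, 3 or 4 or ZT12 replicate 3 and 4 without ZT12 replicate 2. The lower genes were Gabarapl1, Sqstm1 and Atg7, and the higher genes Bnip3 and Tfeb. The calls not held were Atg7 without ZT8 replicates 1, 2, 3 or 4 or ZT12 replicates 2, 3 or 4 (highest adjusted p = 0.114) and Tfeb without ZT8 replicates 2, 3 or 4 or ZT12 replicate 3 (highest adjusted p = 0.082). Gabarapl1, a protein of the autophagosome membrane, read 516, 523, 538 and 449 CPM at ZT8 and 289.7, 320.3, 305 and 322 CPM at ZT12, a log2 change of -0.71 ± 0.07 (SE, adjusted p = 0.000641). Bnip3, a receptor for the autophagy of mitochondria, read 187, 192, 187 and 173 CPM at ZT8 and 255, 241, 213 and 287 CPM at ZT12, a log2 change of 0.43 ± 0.09 (SE, adjusted p = 0.0137). Sqstm1 (p62), the cargo adaptor, read 386, 338, 392 and 384 CPM at ZT8 and 277, 272, 268 and 253 CPM at ZT12, a log2 change of -0.49 ± 0.06 (SE, adjusted p = 0.00186).

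Of 19 immediate early and Id genes tested, 3 were higher and 4 lower, beside 7.10% and 8.42% of all genes tested. The median was -0.0933, and the lower count was 2 without ZT8 replicate 3. The higher genes were Gadd45g, Btg2 and Myc, and the lower genes Junb, Klf6, Egr1 and Id2, with Id2 not called without ZT8 replicates 1, 2 or 3 or ZT12 replicate 4 (highest adjusted p = 0.0755). Btg2, an antiproliferative gene, read 5.36, 4.38, 4.99 and 5.61 CPM at ZT8 and 8.63, 12.6, 13.8 and 18.5 CPM at ZT12, a log2 change of 1.4 ± 0.21 (SE, adjusted p = 0.00413). Junb, a part of the AP-1 factor, read 33.9, 30.1, 31.1 and 45.3 CPM at ZT8 and 21.4, 14.4, 22.4 and 20.8 CPM at ZT12, and Klf6, a zinc-finger factor gene, read 7.13, 7.02, 8.01 and 6.19 CPM at ZT8 and 3.91, 3.45, 3.49 and 4.42 CPM at ZT12. Both were lower in each ZT12 liver, by log2 changes of -0.83 ± 0.17 (SE, adjusted p = 0.0135) and -0.89 ± 0.14 (SE, adjusted p = 0.00441). Egr1, an early growth response factor gene, read 15.3, 16.3, 18 and 15.7 CPM at ZT8 and 7.63, 1.03, 3.8 and 5.43 CPM at ZT12 (adjusted p = 0.0179), and was not past the threshold without ZT8 replicate 3 (adjusted p = 0.0528) or ZT12 replicate 3 (adjusted p = 0.0554). Myc, a growth factor-induced transcription factor gene, read 1.56, 9.24, 0.951 and 3.81 CPM at ZT8 and 2.18, 46.2, 46.4 and 31.2 CPM at ZT12. ZT12 replicate 1 was as low as ZT8, and the call (adjusted p = 0.0437) was not held without ZT8 replicate 1 (adjusted p = 0.104), ZT8 replicate 3 (adjusted p = 0.108), ZT8 replicate 4 (adjusted p = 0.103), ZT12 replicate 2 (adjusted p = 0.087), ZT12 replicate 3 (adjusted p = 0.0991) or ZT12 replicate 4 (adjusted p = 0.0679).

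Cell cycle genes gave 4 of 17 tested higher and 0 lower, beside 7.10% and 8.42% of all genes tested. Their median was 0.0569. At an unadjusted p under 0.05 the lower genes numbered 0, and with DESeq2 0. The higher genes were Ccne2, Ccne1, Rrm2 and Wee1, and their count was 1 without ZT8 replicates 1, 2 or 3 and 2 without ZT8 replicate 4 or ZT12 replicates 2 or 3. Of the genes behind that count, the test did not keep Ccne1 without ZT8 replicates 1, 2, 3 or 4 or ZT12 replicates 3 or 4 (highest adjusted p = 0.0726), Rrm2 without ZT8 replicates 1, 2 or 3 or ZT12 replicates 2 or 4 (highest adjusted p = 0.0699) and Wee1 without ZT8 replicates 1, 2, 3 or 4 or ZT12 replicates 1, 2 or 3 (highest adjusted p = 0.0745). Ccne2, cyclin E2, which opens S phase, read 0.679, 0.903, 0.555 and 0.71 CPM at ZT8 and 2, 2.86, 1.4 and 1.71 CPM at ZT12, a log2 change of 1.47 ± 0.3 (SE, adjusted p = 0.0135). Of 25 acute phase genes, 6 were higher and 2 lower, beside 7.10% and 8.42% of all genes tested. Their median was 0.235, and 4 of the 6 higher genes held in all 8 fits that left out a library. The lower genes were Fgg and Itih4, and their count was 0 without ZT8 replicates 3 or 4 or ZT12 replicate 3 and 1 without ZT8 replicates 1 or 2. Left uncalled was Itih4 without ZT8 replicates 3 or 4 or ZT12 replicate 3 (highest adjusted p = 0.065). Hamp, hepcidin, the hormone that limits iron release into plasma, read 747, 688, 706 and 632 CPM at ZT8 and 1285, 1094, 2171 and 1522 CPM at ZT12. ZT12 replicate 3 was the highest, and the log2 change was 1.13 ± 0.19 (SE, adjusted p = 0.00549). Fgg, a fibrinogen chain, read 2398, 2352, 2536 and 2436 CPM at ZT8 and 1559, 2002, 1957 and 2148 CPM at ZT12 (adjusted p = 0.0375), and was not past the threshold without ZT8 replicate 1 (adjusted p = 0.0729), ZT8 replicate 2 (adjusted p = 0.0696), ZT8 replicate 3 (adjusted p = 0.0988), ZT8 replicate 4 (adjusted p = 0.0815), ZT12 replicate 2 (adjusted p = 0.0608) or ZT12 replicate 3 (adjusted p = 0.0796).

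**Figure D3:**
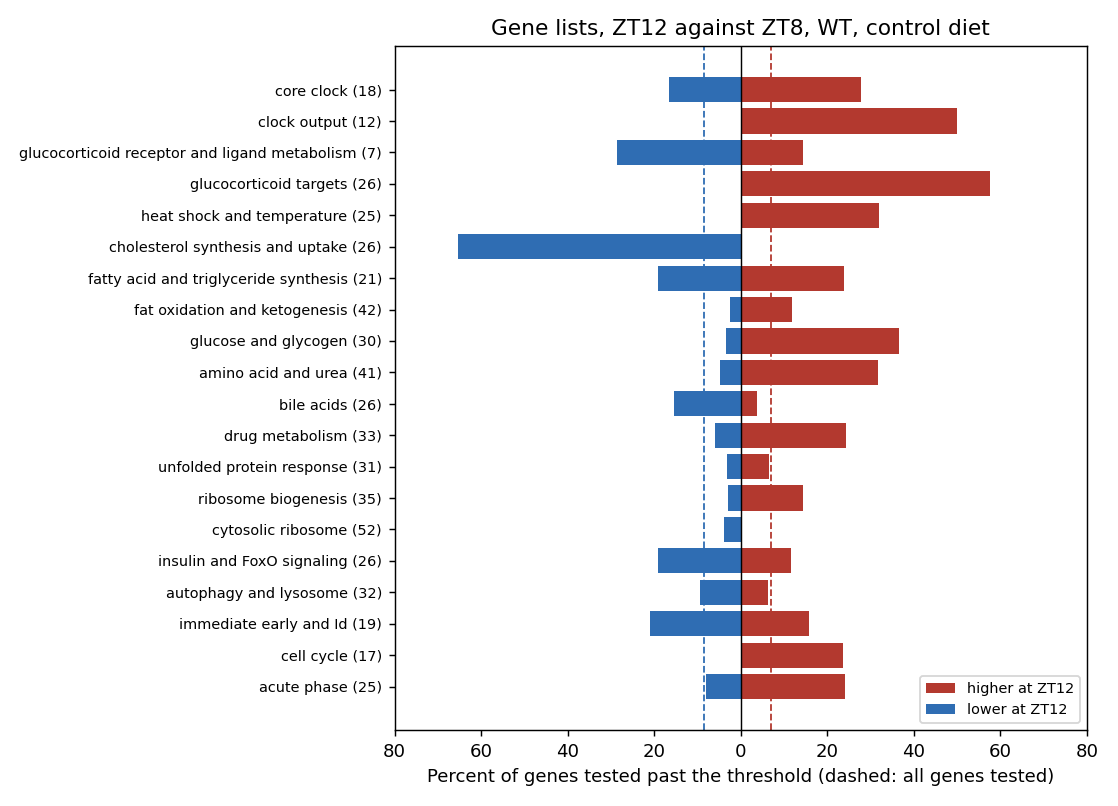
Percent of the tested genes of each of 20 lists that were higher or lower at ZT12 (horizontal, percent; bars from 0; dashed lines: all genes tested, 7.10 higher and 8.42 lower). Glucocorticoid targets had 15 of 26 higher, and cholesterol synthesis and uptake had 17 of 26 lower.

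Most of the Kupffer cell, endothelial and stellate markers tested were lower at ZT12, beside 8.42% of all genes tested. Of 8 Kupffer cell and macrophage markers, 7 were lower, and the list summed to 126, 124, 125 and 116 CPM at ZT8 and 82, 67, 55.4 and 85.2 CPM at ZT12. Its most abundant gene, Clec4f, a lectin receptor of Kupffer cells, read 38.2, 38.2, 37 and 36.6 CPM at ZT8 and 27.5, 19.4, 16.9 and 25.7 CPM at ZT12. Of 6 endothelial markers, 4 were lower (Pecam1, Clec4g, Kdr and Bmp2), and the sum was 133, 118, 131 and 119 CPM at ZT8 and 82.1, 71, 74.1 and 80.5 CPM at ZT12. Clec4g, a lectin of sinusoidal endothelium, was the most abundant, at 40.4, 33, 39.6 and 35.9 CPM at ZT8 and 24.9, 21.4, 22.2 and 21.7 CPM at ZT12. Of 6 stellate cell and fibroblast markers, 4 were lower (Dcn, Lrat, Reln and Pdgfrb), and the sum was 147, 173, 186 and 178 CPM at ZT8 and 119, 94, 89.1 and 120 CPM at ZT12, with Dcn, decorin, the most abundant. The stellate count was 2 without ZT8 replicates 2, 3 or 4. Markers that lost their call were Dcn without ZT8 replicate 3 (adjusted p = 0.052), Lrat without ZT8 replicates 2, 3 or 4 or ZT12 replicate 4 (highest adjusted p = 0.0814), Pdgfrb without ZT8 replicates 2 or 4 or ZT12 replicates 2 or 3 (highest adjusted p = 0.0749), Cd5l without ZT8 replicates 1, 3 or 4 or ZT12 replicate 2 (highest adjusted p = 0.0712) and Marco without ZT8 replicates 1, 2, 3 or 4 or ZT12 replicates 1, 2 or 3 (highest adjusted p = 0.112). Each of these 3 sums was lower in every ZT12 liver than in every ZT8 liver. Reads of bulk tissue cannot tell fewer cells of a type from less RNA per cell, and the part of these cells in the changes above was not tested.

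The remaining markers gave little. For cholangiocytes the 5 markers summed to 41.5, 58.2, 33.3 and 29.9 CPM at ZT8 and 30.2, 21.8, 31.6 and 51.7 CPM at ZT12, with Spp1 the most abundant and Epcam at 0 in all 8 livers. The 6 lymphocyte markers summed to 3.39, 3.68, 2.62 and 3.42 CPM at ZT8 and 3, 1.62, 0.853 and 1.86 CPM at ZT12, led by Cd4, and Cd79a, a B cell receptor chain, was the 1 lower gene of the 2 tested. The 6 erythrocyte markers summed to 663, 278, 289 and 607 CPM at ZT8 and 483, 425, 493 and 630 CPM at ZT12, led by Hbb-bs, and overlapped between the times. The 5 neutrophil, 6 adipocyte and 10 exocrine pancreas markers were all too low to test. Their sums were at most 1.49, 1.68 and 2.64 CPM in any liver, with S100a9, Cfd and Cela2a the most abundant. Ly6g and Mpo, Plin1 and Lep, and Cel were at 0 in all 8 livers.

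The same step was measured in 8 GRLKO livers on the control diet, 4 at each time, to ask which changes differ when hepatocytes lack GR. Their libraries summed to 12750053 to 13535030 counts at ZT8 and 12974408 to 16066590 at ZT12. In GRLKO, 773 of 11583 genes tested (6.67%) differed between the times, a count that was 280 without ZT8 GRLKO replicate 1, 284 without ZT8 GRLKO replicate 2, 312 without ZT12 GRLKO replicate 2, 329 without ZT8 GRLKO replicate 4 and 331 without ZT12 GRLKO replicate 1. DESeq2 gave 1283. The difference itself was tested as the WT change less the GRLKO change, and 18 of 11980 genes (0.150%) passed, 12 positive and 6 negative. That count was 11 without ZT8 WT replicates 1 or 4 or ZT8 GRLKO replicates 2 or 4, and DESeq2 gave 76. The positive differences numbered 6 without ZT8 WT replicate 4 or ZT8 GRLKO replicate 2 and 7 without ZT8 WT replicates 1 or 3 or ZT8 GRLKO replicate 4. Of 26 glucocorticoid targets, 1 passed, Zbtb16. At an unadjusted p under 0.05 the targets with a positive difference numbered 15, and with DESeq2 5. Over all 11980 genes, 658 had an unadjusted p under 0.05, in either direction. Of the 76 genes with DESeq2, 56 were positive. Of 18 core clock genes and of 26 cholesterol genes, 0 passed with edgeR and 0 with DESeq2, while 4 and 4 had an unadjusted p under 0.05.

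Zbtb16 showed this difference in the single livers. On the scale of all 16 libraries it read 7.08, 2.83, 3.94 and 4.48 CPM at ZT8 and 40.6, 55.3, 66.7 and 51.4 CPM at ZT12 in WT. The GRLKO livers read 1.54, 3.49, 2.81 and 2.65 CPM at ZT8 and 3.75, 4.85, 2.45 and 3.53 CPM at ZT12, so all 4 of them stayed low at ZT12. The difference of the log2 changes was 3.05 ± 0.4 (SE, adjusted p = 0.00276). St3gal5, which makes the ganglioside sialyllactosylceramide, read 56.3, 59.9, 52.1 and 54.2 CPM at ZT8 and 174, 208, 175 and 165 CPM at ZT12 in WT. In GRLKO it read 56.9, 47.6, 45.6 and 44.2 and 43.1, 41.7, 52 and 53.3 CPM. The WT livers rose at ZT12 and the GRLKO values overlapped between the times, a difference of 1.73 ± 0.14 (SE, adjusted p = 2.51e-05). Cdip1, a gene induced by p53 in cell death, read 70.1, 69, 63.2 and 68.1 and then 130, 130, 129 and 144 CPM in WT, against 54.9, 56.6, 55.5 and 52.5 and 58.3, 52.5, 59.1 and 54.5 CPM in GRLKO, a difference of 0.95 ± 0.08 (SE, adjusted p = 2.51e-05). Nucks1, a nuclear DNA-binding protein gene, and Fbxo31, a subunit of a ubiquitin ligase, differed by 0.78 ± 0.08 (SE, adjusted p = 0.000179) and 1 ± 0.12 (SE, adjusted p = 0.00168). Ppp1r9a fell in both genotypes and further in WT. Its log2 change was -0.97 ± 0.2 (SE, adjusted p = 0.025) in GRLKO, not past the threshold without ZT8 GRLKO replicates 1 or 2 or ZT12 GRLKO replicate 1 (highest adjusted p = 0.0749), and the difference was -2.16 ± 0.25 (SE, adjusted p = 0.000861). The calls of these 6 differences held in all 16 fits that left out a library.

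The other 12 genes with a difference by genotype were Cldn2, Tlr12, Zfpm1, Sdc4, Tmem50a, Tcim, Paqr9, Il1r1, Erlin1, Pptc7, Susd6 and Saa4. Cldn2, a claudin of leaky epithelia, differed by -0.94 ± 0.12 (SE, adjusted p = 0.00276) and held in all 16 fits. Tlr12, Zfpm1 and Sdc4 also held in all 16. Tmem50a was lost without ZT8 WT replicate 4 or ZT8 GRLKO replicate 2 (highest adjusted p = 0.0505). The other 7 were each lost in 8 fits or more: Tcim held in 8 of 16 (highest adjusted p = 0.0765), Paqr9 in 5 (0.0827), Pptc7 in 3 (0.105), Erlin1 in 3 (0.0986), Il1r1 in 3 (0.0994), Saa4 in 2 (0.114) and Susd6 in 1 (0.117).

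Several leading genes of the WT step gave no difference by genotype that passed. Nr1d1 changed by -1.63 ± 0.15 (SE, adjusted p = 0.000929) in GRLKO, Per2 by 1.26 ± 0.19 (SE, adjusted p = 0.00885), Pck1 by 1.38 ± 0.2 (SE, adjusted p = 0.00836) and Tat by 1.1 ± 0.16 (SE, adjusted p = 0.00858). Their differences between genotypes were -0.7 ± 0.24 (SE, adjusted p = 0.659), 0.01 ± 0.24 (SE, adjusted p = 1), 0.14 ± 0.25 (SE, adjusted p = 1) and 0.39 ± 0.2 (SE, adjusted p = 0.947), and none passed. Lpin1 averaged 15.1 ± 4.04 CPM at ZT8 and 28.2 ± 35.1 CPM at ZT12 in GRLKO (SD, n = 4 each), with a difference of 2.29 ± 0.91 (SE, adjusted p = 0.784). Fkbp5 averaged 12.5 ± 2.09 and 15.1 ± 3.04 CPM, with a difference of 1.87 ± 0.37 (SE, adjusted p = 0.0744). Both WT rises had no counterpart past the test in GRLKO, and neither difference passed. For Hmgcs1 the GRLKO change was -0.95 ± 0.24 (SE, adjusted p = 0.0512), past the threshold without ZT12 GRLKO replicate 4 (adjusted p = 0.011), and the difference -0.67 ± 0.34 (SE, adjusted p = 0.933). Of the markers of other cells, 1 of 8 for Kupffer cells, 1 of 6 for endothelial cells and 1 of 6 for stellate cells were lower in GRLKO, beside 393 of 11583 genes tested. The median log2 changes of the 3 lists were -0.663, -0.578 and -0.56 in GRLKO and -0.734, -0.728 and -0.662 in WT. The number lower among all genes tested in GRLKO was 135 without ZT8 GRLKO replicate 1, 138 without ZT8 GRLKO replicate 2, 149 without ZT12 GRLKO replicate 2, 164 without ZT12 GRLKO replicate 1 and 165 without ZT8 GRLKO replicate 4. The Kupffer count was 0 without ZT8 GRLKO replicates 1, 2 or 4 or ZT12 GRLKO replicates 1, 2 or 3 and 2 without ZT8 GRLKO replicate 3, and the endothelial count 0 without ZT8 GRLKO replicates 1, 2 or 4 or ZT12 GRLKO replicates 1, 2 or 3, 2 without ZT12 GRLKO replicate 4 and 4 without ZT8 GRLKO replicate 3. The step of these 20 markers differed by genotype in 0 with edgeR, 0 at an unadjusted p under 0.05 and 0 with DESeq2.

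WT livers under caloric restriction give the same clock hours with another feeding history (3 mice at each time, 17767142 to 18761267 counts at ZT8 and 16249746 to 20788575 at ZT12). Diet and library batch cannot be told apart, so levels are not compared between diets, only the steps from ZT8 to ZT12. Under CR, 2485 of 11858 genes tested (21.0%) differed between the times, a count that was 1237 without CR ZT8 WT replicate 3, 1336 without CR ZT12 WT replicate 3, 1378 without CR ZT12 WT replicate 2 and 1605 without CR ZT12 WT replicate 1. The control-diet change less the CR change passed in 1484 of 12241 genes (12.1%), a count that was 973 without CR ZT8 WT replicate 3. Of 18 core clock genes, 6 differed by diet (Arntl, Ciart, Per1, Per2, Per3 and Rora), and the count was 3 without CR ZT8 WT replicate 3. Ciart, Per2 and Per3 kept this call in all 14 fits that left out a library. Rora lost it without CR ZT8 WT replicate 3 or CR ZT12 WT replicate 1 (highest adjusted p = 0.0601), Arntl without CR ZT8 WT replicates 1 or 3, CR ZT12 WT replicates 1, 2 or 3, ZT8 WT replicates 2 or 4 or ZT12 WT replicates 2 or 4 (highest adjusted p = 0.103), and Per1 without CR ZT8 WT replicates 2 or 3, CR ZT12 WT replicates 1, 2 or 3, ZT8 WT replicates 1, 3 or 4 or ZT12 WT replicates 1, 2 or 4 (highest adjusted p = 0.103). Per2 averaged 58.7 ± 13.2 CPM at ZT8 and 60.7 ± 3 CPM at ZT12 under CR (SD, n = 3 each). The change under CR did not pass, at 0.05 ± 0.17 (SE, adjusted p = 0.863), and the difference was 1.22 ± 0.22 (SE, adjusted p = 0.00407). Nr1d1 fell under CR too, by a log2 change of -2.33 ± 0.21 (SE, adjusted p = 0.0012), with a difference of -0.01 ± 0.31 (SE, adjusted p = 0.994) that did not pass. Of 26 cholesterol genes, 11 differed by diet, all in that the CR change was the lower, and the count was 7 without CR ZT8 WT replicate 3 or CR ZT12 WT replicate 2.

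The 5 genes with the smallest p for this difference were Usp2, Nfil3, Ddi2, Tgoln1 and Clpx, read here on the scale of all 14 libraries. Usp2 was 34.2, 38.6, 37.8 and 34.4 CPM at ZT8 and 86.8, 78.6, 87 and 99 CPM at ZT12 on the control diet, against 115, 104 and 106 and 88.7, 82.9 and 94.1 CPM under CR. It rose on the control diet, while its change under CR did not pass, a difference of 1.57 ± 0.12 (SE, adjusted p = 5.98e-05). Nfil3, which blocks the PAR bZIP factors at their sites, was 12.6, 6.49, 12.5 and 9.98 CPM at ZT8 and 17.7, 14, 11.9 and 15.1 CPM at ZT12 on the control diet, against 3.64, 4.3 and 3.76 and 60.3, 49.6 and 50.1 CPM under CR. The CR livers were low at ZT8 and high at ZT12, a difference of -3.27 ± 0.28 (SE, adjusted p = 7.68e-05). Ddi2, a protease that activates the proteasome gene regulator Nfe2l1, was 195, 180, 171 and 175 CPM at ZT8 and 202, 200, 208 and 189 CPM at ZT12 on the control diet, against 154, 159 and 139 and 404, 410 and 358 CPM under CR, a difference of -1.23 ± 0.1 (SE, adjusted p = 7.68e-05). Clpx, the unfoldase of the mitochondrial Clp protease, fell on the control diet and rose under CR, a difference of -2.05 ± 0.16 (SE, adjusted p = 6.47e-05). Tgoln1, a trans-Golgi membrane protein gene, did likewise, a difference of -1.45 ± 0.12 (SE, adjusted p = 7.68e-05). All 5 held in all 14 fits that left out a library. Kupffer cell markers summed to means of 214 and 56.9 CPM under CR, endothelial markers to 147 and 158 and stellate markers to 203 and 222. Their median log2 changes under CR were -1.76, 0.163 and -0.347, so the stellate median went the opposite way to its sum. In that order, 8, 0 and 1 were lower under CR and 0, 2 and 0 higher. The difference by diet passed in 1 of 8, 4 of 6 and 2 of 6, beside 12.1% of all genes tested. With DESeq2 the counts were 4, 5 and 2. The part of these cells in the diet difference was not tested.

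Promoters of clock repressors are shown because the element read by Clock and BMAL1, the E-box, is known by its letters. The E-box searched was CACGTG, which is the same on both strands, in the 250 bases before each gene's start (RefSeq, build GRCm38.p6). It was found in 1978 of all 32851 promoters (6.02%). Among genes tested and matched to a promoter it was found in 885 of 8919 (9.92%), in 71 of 618 higher at ZT12 (11.5%) and in 98 of 756 lower (13%). Of 14 core clock genes with a promoter entry, 4 held it: Per1, Cry1, Ciart and Bhlhe41. So did 7 of 22 glucocorticoid targets and 5 of 18 cholesterol genes. Each stretch below has 20 bases on either side, with 1 E-box in capitals, written 5′ to 3′ along the gene. Ciart held 3 matches: 1 is in capitals, and another lies in lower case in the bases before it.
Per1, chr11:69098763-69098808, plus strand: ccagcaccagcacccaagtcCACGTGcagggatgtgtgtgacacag
Cry1, chr10:85185089-85185134, minus strand: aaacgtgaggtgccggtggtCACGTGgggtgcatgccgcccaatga
Ciart, chr3:95882247-95882292, minus strand: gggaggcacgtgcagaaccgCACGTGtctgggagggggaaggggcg
Bhlhe41, chr6:145865548-145865593, minus strand: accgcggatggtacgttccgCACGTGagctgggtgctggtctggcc
Per1, Cry1 and Ciart rose and Bhlhe41 fell. The Per1 stretch lies before the RefSeq start used here but inside the wider GENCODE span of the gene given below. A match is a description of the letters and not a bound site.

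The core of the sterol response element, TCACCCCAC on either strand, was found in 163 of all promoters (0.496%). Of 18 cholesterol genes with a promoter entry, 1 held it, Hmgcs1. The stretch is shown since this gene had the steepest fall of the list, with the core in capitals.
Hmgcs1, chr13:119690194-119690242, plus strand: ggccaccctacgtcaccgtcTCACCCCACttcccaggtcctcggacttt
On the genome (GENCODE annotation of GRCm38), Per1 lies at chr11:69095217-69109960, Cry1 at chr10:85131700-85185064, Ciart at chr3:95878503-95882251, Bhlhe41 at chr6:145858243-145865558, Nr1d1 at chr11:98767932-98775333, Zbtb16 at chr9:48654297-48836222, Lpin1 at chr12:16535669-16610966 and Hmgcs1 at chr13:119690379-119708260.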

How the data were processed

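Liver RNA was measured by sequencing. The authors deposited estimated counts per gene, made with Salmon on mm10, and these were rounded to whole numbers. Tests used edgeR 4.0.16 in R 4.3.3: TMM scaling, filterByExpr with a minimum count of 10, the quasi-likelihood F test, and Benjamini-Hochberg adjustment over all genes tested, with genes called under 0.05. A difference of changes was tested as an interaction term. DESeq2 1.42.0, RLE scaling, other filters, larger fits and the replicate block were tried as alternatives. Named genes were the 10 steepest rises and 10 steepest falls among called, symbol-bearing genes with a mean of at least 5 CPM in 1 group, at least 1 CPM in each library of the higher group, no overlap and a call without any 1 library, all core clock and GR and ligand genes, up to 3 called genes per direction in each other list, and the 5 genes with the smallest p in each difference test. Some genes that meet these rules are not reported here. Other genes named were chosen after their values were seen. The comparison, its members and the lists were chosen with earlier results of these data known. In the tables used, 30 columns were left out, since they belong to other times or groups. Positions are from GENCODE and promoters from RefSeq.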

Additional observations from a re-analysis of the deposited data

Results flagged for a closer look

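In 240 groups of 4 livers, 1 for each named gene at each time, 11 held a liver far from the other 3, and chance alone gives about 1 in 20 groups. Abcd2 read 13.1 CPM in ZT12 replicate 4, against 3.8 to 5.14 in the other mice of its group, and Aqp8 read 173 CPM in ZT8 replicate 4, against 85.4 to 88.1 in the other mice of its group. Cdip1 read 140 CPM in ZT12 replicate 4, against 126 in the other mice of its group, and Cebpb read 32.8 CPM in ZT8 replicate 4, against 21.7 to 23.4 in the other mice of its group. Chac1 read 3.68 CPM in ZT8 replicate 2, against 1.11 to 1.29 in the other mice of its group, and Clock read 2.86 CPM in ZT12 replicate 2, against 0 in the other mice of its group. Eif4ebp3 read 130 CPM in ZT12 replicate 4, against 45.4 to 48.1 in the other mice of its group, and Fzd6 read 2.95 CPM in ZT12 replicate 3, against 1.01 to 1.32 in the other mice of its group. Ncl read 37.8 CPM in ZT8 replicate 1, against 40.4 to 40.9 in the other mice of its group, and Scara5 read 42.7 CPM in ZT12 replicate 4, against 17.5 to 18.7 in the other mice of its group. Sqstm1 read 338 CPM in ZT8 replicate 2, against 384 to 392 in the other mice of its group.

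The step from ZT8 to ZT12 differed between genotypes, by the test of the difference, for 18 genes. Of these, 6 were chosen by the rules for named genes given above. On the log2 scale, as the WT change less the GRLKO change, the differences of these 6 were Cdip1 0.946, Fbxo31 0.996, Nucks1 0.782, Ppp1r9a -2.16, St3gal5 1.73 and Zbtb16 3.05.

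By diet, the difference was the control-diet change less the CR change in WT, and it passed in 1484 of 12241 genes (12.1%). The rules took many genes for their control-diet change, and 5 by the smallest p of this same test. The counts among them thus follow in part from the choice. Among genes chosen by those rules, 15 passed with a positive and 22 with a negative difference. Those with a positive difference on the log2 scale were Mthfd1l 3.24, Ciart 2.1, Mfsd2a 2.06, Lpin1 2.04, Per3 1.9, Zbtb16 1.69, Usp2 1.57, Per2 1.22, Hamp 1.19, Per1 1.08, Nampt 0.917, Sc5d 0.904, Nr3c2 0.661, Tfeb 0.612 and Srd5a1 0.504. Negative differences were Arntl -4.93, Nfil3 -3.27, Egr1 -3.02, Ppp1r3c -2.6, Insig2 -2.32, Clpx -2.05, Camk1d -1.75, Tgoln1 -1.45, Angptl4 -1.28, Ddi2 -1.23, Rora -0.85, Plin2 -0.761, Ern1 -0.745, Foxo1 -0.656, Klb -0.612, Gabarapl1 -0.601, Kynu -0.555, Sqstm1 -0.542, Insr -0.491, Slc25a20 -0.419 and Nucks1 -0.408. Elovl3, not tested within CR alone, had a fitted difference of -12.7, which is no bound. Other genes named in the text passed this test too, among them Dbp, Tef, Wee1, G6pc, Nr5a2, Srebf2, Acat2 and Mybbp1a.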

How the results depend on the processing

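Of 120 named genes with a value, 119 kept their direction and their side of the threshold with DESeq2, 120 with RLE scaling, 117 with no filter and 111 of 112 with a minimum count of 50. In 1 fit of the 22 control-diet WT libraries, 111 did so, and in 1 fit of the 42 control-diet libraries, 108. The genes called between ZT8 and ZT12 in WT numbered 2187 with DESeq2, 1771 with RLE scaling, 1494 of 17338 with no filter, 1750 of 9271 with a minimum count of 50, 2214 with 22 libraries and 2254 with 42. With DESeq2, the GRLKO comparison gave 1283 genes in place of 773, and the difference by genotype 76 in place of 18. On simulated data DESeq2 made more false calls than edgeR in both the WT comparison and the difference by genotype. Those data were drawn with the spread among mice that edgeR had fitted and with a preset number of changed genes. They cannot decide which counts are nearer the truth here.

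Without 1 library, the calls ranged over 952 to 1708 in WT on the control diet, 413 to 823 of them higher and 539 to 885 lower when each direction is taken alone. They ranged over 280 to 773 in GRLKO, 1237 to 1813 under CR, 11 to 21 for the difference by genotype and 973 to 1459 for the difference by diet. Each such fit has 1 mouse fewer. The sign of the fitted change turned for 6 named genes that were not called: Akr1d1 (0.0776 without ZT12 replicate 3, over a range of -0.15 to 0.0776), Arntl (-0.212 without ZT8 replicate 1, -0.308 without ZT8 replicate 3, -0.481 without ZT12 replicate 3 and -0.123 without ZT12 replicate 4, over a range of -0.481 to 0.8), Csnk1d (0.0306 without ZT12 replicate 3, over a range of -0.0468 to 0.0306), Csnk1e (0.0248 without ZT8 replicate 4 and 0.0448 without ZT12 replicate 3, over a range of -0.125 to 0.0448), Fbxl21 (0.0364 without ZT8 replicate 4, over a range of -0.298 to 0.0364) and Hsd11b1 (-0.0054 without ZT8 replicate 3 and -0.0352 without ZT12 replicate 2, over a range of -0.0352 to 0.0623).

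With the replicate number as a block, the WT count was 953, with 418 higher and 535 lower. The block gave 302 calls in GRLKO, 1366 under CR, 5 for the difference by genotype and 785 for that by diet. Of the 120 named genes, 18 lost their call with the block: Angptl4, Atg7, Bnip3, Ccne1, Chac1, Dkc1, Fgg, Hspa8, Insr, Itih4, Nop2, Pik3r1, Plin2, Ppp1r3b, Sesn1, Srd5a1, Tfeb and Tsc1. After each group's mean was removed, livers of equal number at ZT8 and ZT12 correlated over genes at 0.0277, -0.00415, 0.0047 and -0.0144 in WT on the control diet, 0.0248, -0.026, -0.0156 and 0.0704 in GRLKO and -0.102, -0.0771 and -0.0375 under CR, in the order of the numbers. In this comparison only GRLKO replicate 4 was closest to its own number. The cause of these shifts was not tested.

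Few mice and 1 strain and sex limit these results, and 4 livers at each time leave small changes undetected at this depth. Estimated counts can be shared between alike genes.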
